A study of Mus musculus with 12 samples.

Results

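The 53 genes described here form the mitotic, G2/M phase module of a microarray series on differentiated mouse neurospheres. They are a chosen list of genes with known roles in G2 and mitosis, not the whole of such genes. All probes whose RefSeq identifier belonged to a member were taken, which gave 78 of the 55681 probes of the array and at least 1 probe for each of the 53 genes, out of 20887 genes that could be named. A probe was called expressed where, in any comparison, at least 3 of 4 arrays flagged its signal for 1 of the conditions as well above background. By that rule 51 members (72 probes) were expressed, out of 14330 genes (29361 probes) in all. The 2 that were not were Cenpf, a kinetochore protein, and Aurkb, the kinase of the chromosomal passenger complex, each of which had a single probe. The probe of Cenpf was well above background on no array in the WT or BK_APP channel and on at most 2 arrays of 4 in any other, and that of Aurkb on at most 1.

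Neurospheres are free-floating clusters grown from neural progenitor cells. They were prepared from the telencephalon of C57BL/6 mouse embryos at day 13 of gestation, grown for 5 days with EGF and FGF2, and then differentiated for 7 days on an adhesive coating without these mitogens. WT neurospheres came from wild-type embryos. APP_WT neurospheres came from APPswe/PS1dE9 embryos, which carry transgenes for amyloid precursor protein with the Swedish mutation and for presenilin 1 with the dE9 deletion, both directed to neurons of the central nervous system, and were left untreated. BK_APP neurospheres had the same genotype and received 1 µM bradykinin (BK), a kinin peptide and agonist of the B2 receptor, on days 0, 3 and 6 of differentiation, and HOE_APP neurospheres received 1 µM HOE-140, a B2 receptor antagonist, on the same days. RNA was taken on the seventh day, and APP_WT was set against WT, BK_APP against APP_WT and HOE_APP against APP_WT on 4 two-color arrays each, which makes 12 arrays, with the dyes exchanged between arrays 1 and 2 and arrays 3 and 4 of a comparison. Both treatment comparisons share the APP_WT condition. The channel labels of the HOE_APP arrays name HOE-140 in both channels, so the direction of that comparison rests on the titles and on the dye layout it shares with the BK_APP arrays and is likely rather than settled.

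As background, a cell that enters mitosis does so when CDK1, bound to cyclin B, becomes active. Aurora and Polo-like kinases then build the spindle, the kinetochores attach chromosomes to it, and the spindle checkpoint holds the anaphase-promoting complex until all are attached. CDC20 and UBE2C afterwards direct the destruction of cyclin B, and the cell divides in cytokinesis. Transcripts of these genes accumulate late in the cycle and are low in resting cells, so in a mixed culture their level follows the share of dividing cells and, above all in neurospheres without mitogens, that share can be small. Many of them are repressed in resting cells by the DREAM complex, which acts on a promoter element called CHR, often next to CCAAT boxes bound by NF-Y. Since whole cultures were measured, more dividing cells and more mitotic RNA in each dividing cell cannot be told apart.

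The members share this promoter layout, which the rule did not use. Promoter windows of 300 bases, 250 before and 50 after the annotated start (RefSeq, GRCm38.p6), were at hand for 46 of the 53 members. A CHR, searched as TTTGAA or TTCGAA on both strands, was found in 35 of the 46 (76.1%), against 21.7% of the 27025 genes with a window. The CHR is not particular to the module either, as 72% of 50 other mitotic genes held it, though 22.6% of 31 S phase genes did. A CCAAT box, searched as CCAAT on both strands, was found in 36 of the 46 (78.3%), against 41.1% of all genes. The CCAAT box is not particular to the module, as 71% of 31 S phase genes and 64% of 50 other mitotic genes held it. Both elements were found in 29 of the 46 (63%), against 8.61% of all genes. Of the S phase genes 16.1% held both, and of the other mitotic genes 50%. In the bases before the start alone, a CHR was found in 20 of the 46 (43.5%), against 19.7% of all genes, and both elements in 18 (39.1%), against 7.12%. Of the other mitotic genes 50% held a CHR there and 34% both elements. The E2F core GCGGGAA was found in 1 member, Tmpo (2.17%), against 5.29% of all genes and 48.4% of 31 S phase genes. These motif matches are descriptions of letters in a window, not of binding. The letters of 6 members are given for the 150 bases before the start, to show the layouts that occur: CCAAT boxes alone, CCAAT boxes with a CHR, and neither. Capitals mark matches to CHR or CCAAT on either strand.
Cdca3, chr6:124830026-124830175, plus strand: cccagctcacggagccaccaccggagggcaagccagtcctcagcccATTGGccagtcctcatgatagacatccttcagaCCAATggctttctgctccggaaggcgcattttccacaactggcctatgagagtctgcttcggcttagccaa
Ccnb1, chr13:100786487-100786636, minus strand: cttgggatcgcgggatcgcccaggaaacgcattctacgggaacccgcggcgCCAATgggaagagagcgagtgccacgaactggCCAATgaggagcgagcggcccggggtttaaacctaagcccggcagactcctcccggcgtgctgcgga
Cdc20, chr4:118437344-118437493, minus strand: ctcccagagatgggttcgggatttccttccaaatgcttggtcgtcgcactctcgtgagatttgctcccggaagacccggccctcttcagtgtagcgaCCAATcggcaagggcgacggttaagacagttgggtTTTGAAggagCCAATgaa
Ube2c, chr2:164769779-164769928, plus strand: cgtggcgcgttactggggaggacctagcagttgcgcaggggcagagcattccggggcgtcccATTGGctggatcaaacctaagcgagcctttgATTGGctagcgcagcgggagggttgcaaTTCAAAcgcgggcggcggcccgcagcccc
Kif11, chr19:37376232-37376381, plus strand: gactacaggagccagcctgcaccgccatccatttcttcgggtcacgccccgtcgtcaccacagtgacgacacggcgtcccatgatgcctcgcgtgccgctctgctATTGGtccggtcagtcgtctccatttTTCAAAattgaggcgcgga
G2e3, chr12:51348080-51348229, plus strand: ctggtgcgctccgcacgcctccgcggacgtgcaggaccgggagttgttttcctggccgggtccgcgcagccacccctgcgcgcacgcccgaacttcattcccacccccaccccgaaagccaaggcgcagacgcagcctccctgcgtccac
Cdc20 and Ube2c carried 1 CHR and 2 CCAAT boxes each in this stretch, with the CHR starting 18 and 29 bases before the start, and Kif11 carried 1 of each, with the CHR 19 bases before the start. Cdca3 and Ccnb1 carried 2 CCAAT boxes and no match there to the CHR letters searched, though Cdca3 held such a match after the start. Other spellings of the element were not searched. G2e3 had neither.

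**Figure D1:**
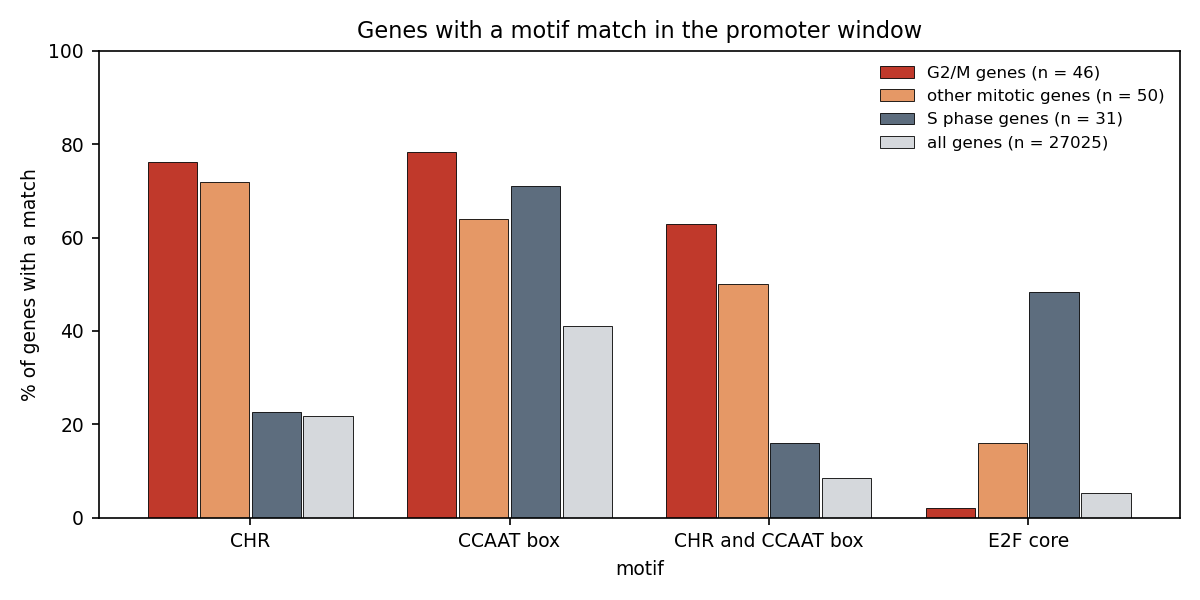
Percentage of genes with a match to each motif in the 300-base promoter window, for the G2/M genes (46 with a window), the other mitotic genes (50), the S phase genes (31) and all genes (27025). The CHR stood in 76.1% of the G2/M genes and 72% of the other mitotic genes, against 22.6% of the S phase genes and 21.7% of all genes.

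The cultures expressed the module in every condition. Of the 51 expressed members, 49 or 50 were well above background on all 4 arrays in each channel of each comparison, and none was below background on all arrays of a condition. Mki67, the standard marker of cycling cells, had a mean normalized log2 intensity of 11.31 ± 0.27 (SD, n = 4) in WT and 11.36 ± 0.20 in APP_WT on the same arrays. On the arrays with bradykinin the same probe read 11.39 ± 0.32 in BK_APP and 11.27 ± 0.17 in APP_WT. Each array held both conditions, and the ratios of Mki67 within arrays, given below, had both signs in both comparisons. The normalized intensities of the 51 members summed to between 71572 and 74056 on the 4 arrays in BK_APP. In APP_WT on those same arrays they summed to between 61918 and 69998, a range that did not overlap the first. How often other gene sets part in this way was not counted. Such sums weigh the brightest members most and leave out the pairing of conditions within an array. In HOE_APP the sum was 69430 to 72162 and in APP_WT beside it 67871 to 70906, and in the genotype comparison it was 65344 to 71183 in APP_WT and 61287 to 72525 in WT, so these ranges overlapped. All 12 markers of neural progenitors, 16 of neurons and 10 of astrocytes were expressed, as the labelled origin of the cells implies, and 18 of the 20 microglial markers with a probe. Between 51.2% and 60.3% of all probes were well above background on an array.

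**Figure D2:**
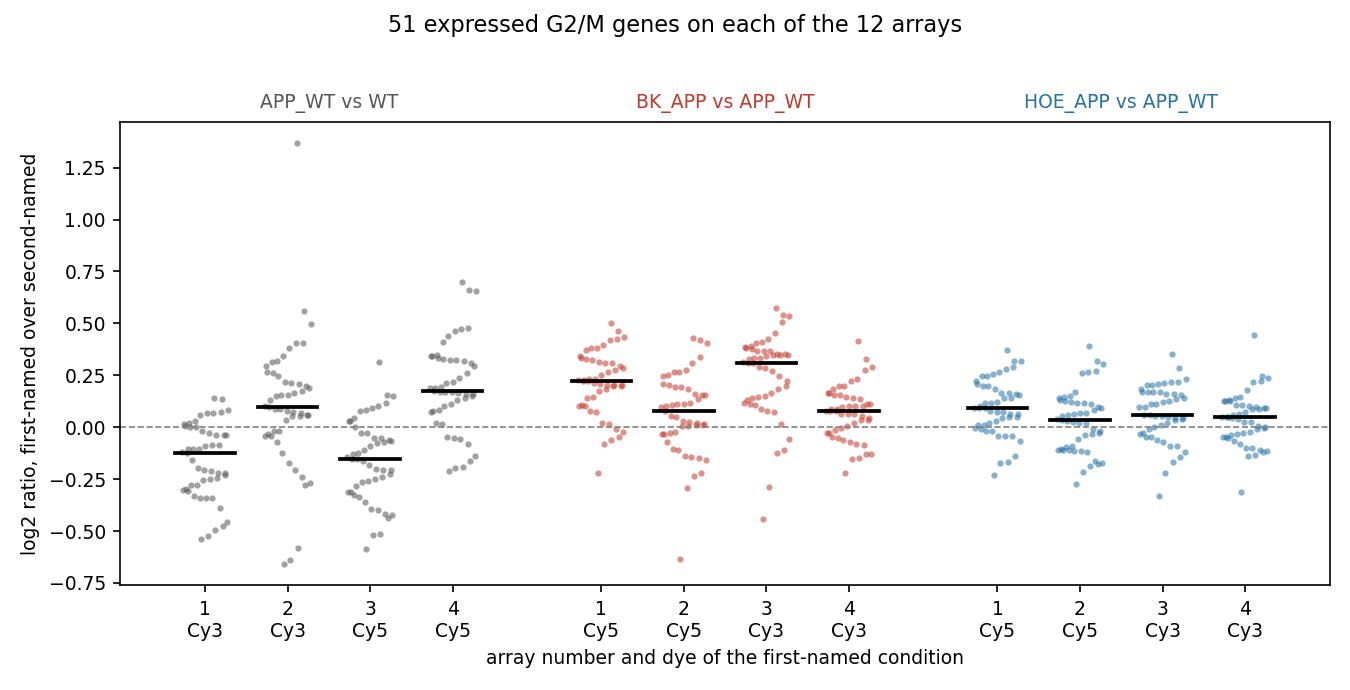
Log2 ratio of each of the 51 expressed G2/M genes (points) on each of the 12 arrays, first-named over second-named condition, with the median of the genes on that array (black bar) and the dye of the first-named condition below. All 4 bradykinin arrays have medians above 0 (0.08 to 0.31), whereas the medians of APP_WT against WT run from -0.15 to 0.17.

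The comparison of BK_APP with APP_WT asked what bradykinin did to the transgenic cultures. Of the 51 expressed members, 48 had a fitted log2 fold change above 0, and the median was 0.18, against -0.00 over all expressed probes. The median of the members was 0.22, 0.08, 0.31 and 0.08 on arrays 1 to 4, so it lay above 0 with either dye orientation, and 22 members were above 0 on all 4 arrays and none below 0 on all 4, against 5.10% and 4.62% of all probes. No member passed the test at an adjusted p below 0.05 (limma, Benjamini-Hochberg over 29361 probes; lowest adjusted p 0.967), and neither did any other probe, with 0% called in either direction. At an unadjusted p below 0.05 there were 21 members with higher values in BK_APP, and none with lower values, against 2.10% and 2.36% of all probes. By the test of the study's methods, significance analysis of microarrays and rank products both at an unadjusted p of 0.05 or lower, 25 members were called higher and none lower, against 1.34% and 1.07% of all probes. These changes were small. The 95% intervals of all 51 members ended below a 1.5-fold increase, and the median SE of a member was 0.08.

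The counts at the unadjusted threshold rested on arrays 1 and 3, in which the treated cells carried opposite dyes and where the members' medians were highest. Without array 1 the count fell from 21 to 3, and without array 3 also to 3, while the median stayed between 0.12 and 0.21 without any single array. Blocking on the replicate number gave a count of 10.

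**Figure D3:**
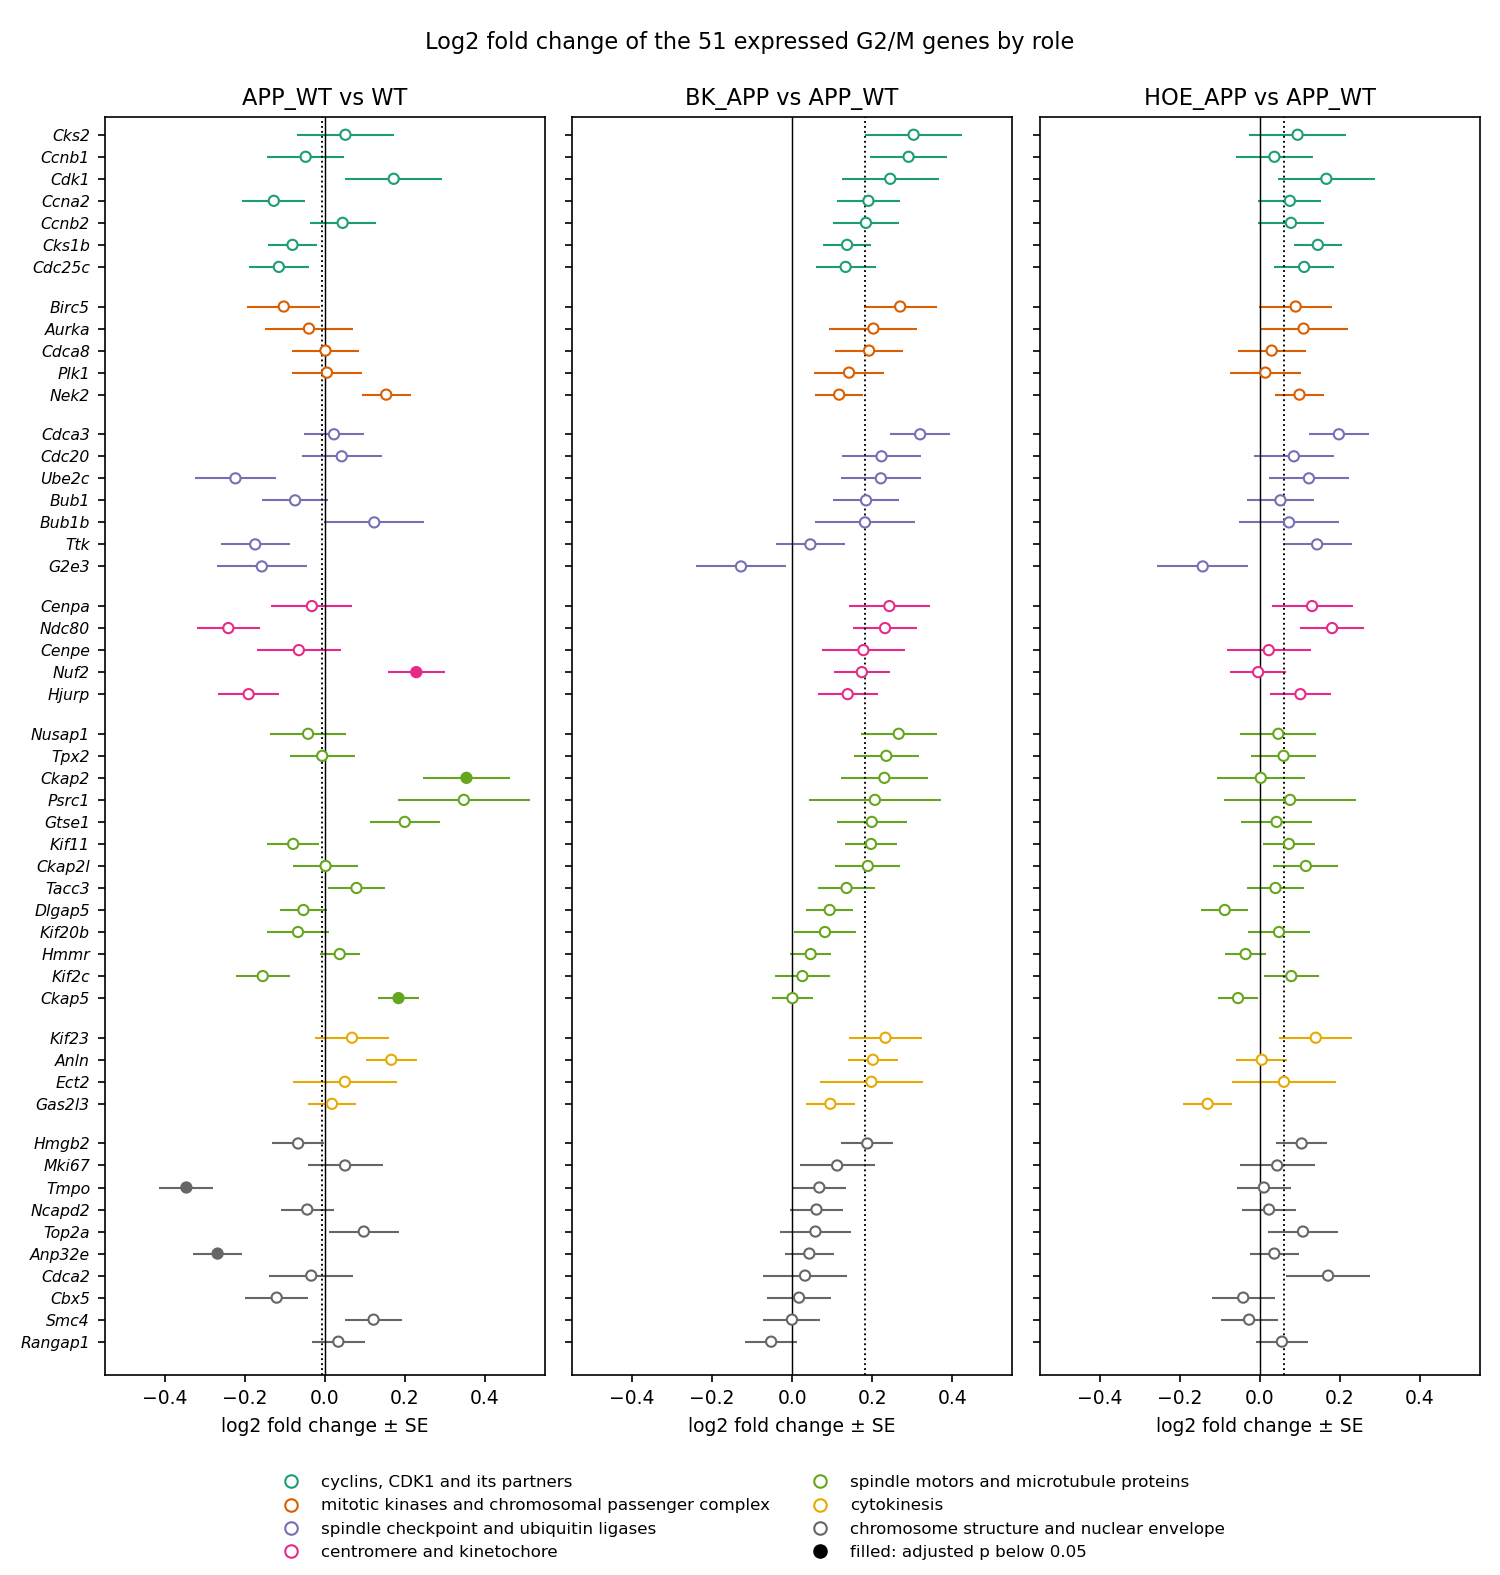
Log2 fold change ± SE (limma) of the 51 expressed G2/M genes in the 3 comparisons, grouped by role and ordered by the bradykinin value. Dotted lines are the medians (-0.01, 0.18 and 0.06), and filled points have an adjusted p below 0.05, which held for 5 genes in APP_WT against WT and for none in the treatment comparisons.

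Among the cyclins, CDK1 and its partners, all 7 members had values above 0 with bradykinin, with a median of 0.19, and 5 were at an unadjusted p below 0.05. Ccnb1, cyclin B1, had log2 ratios of 0.34, 0.11, 0.38 and 0.33 on the 4 arrays. All were above 0, and the fitted log2 fold change was 0.29 ± 0.10 (SE). Its other probes gave 0.19 and 0.06. Cks2, a small subunit bound to CDK1, read 0.50, 0.43, 0.37 and -0.08. Array 4 thus stood on the other side of 0, and the fit gave 0.30 ± 0.12. Cdk1 itself read 0.46, 0.31, 0.34 and -0.13, again with array 4 below 0, for a fit of 0.25 ± 0.12. Ccnb2 and Ccna2, cyclins B2 and A2, were above 0 on all 4 arrays, with fits of 0.18 ± 0.08 and 0.19 ± 0.08. Cks1b and Cdc25c, a CDK-binding subunit and the phosphatase that activates CDK1, had the smallest values of the group at 0.14 and 0.13.

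The 5 expressed mitotic kinases and passenger proteins had a median of 0.19. Birc5, survivin, the passenger subunit that docks at centromeres, read 0.31, 0.26, 0.41 and 0.10, all above 0, for a fit of 0.27 ± 0.09. Aurka and Plk1, the Aurora A and Polo-like kinases, were also above 0 on all 4 arrays, with fits of 0.20 ± 0.11 and 0.14 ± 0.09. Their single arrays ran from 0.01 to 0.31 and from 0.03 to 0.27.

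The spindle checkpoint and ubiquitin ligase genes held both the largest and the smallest value of the module. Cdca3, a trigger of mitotic entry that works with a ubiquitin ligase, read 0.42, 0.42, 0.33 and 0.10, for a fit of 0.32 ± 0.07. G2e3, a ubiquitin ligase named for its G2/M expression, read 0.21, -0.22, -0.44 and -0.05, so 1 array lay above 0 and 3 below, and the fit was -0.13 ± 0.11. Its 4 probes gave values of both signs, from -0.17 to 0.06. Cdc20 and Ube2c, which direct the anaphase-promoting complex and attach ubiquitin for it, were above 0 on all 4 arrays and had fits of 0.22 ± 0.10 each. The checkpoint kinases Bub1 and Bub1b had 0.18 ± 0.08 and 0.18 ± 0.13, also with all 4 arrays above 0. Ttk, another checkpoint kinase, had arrays on both sides of 0 and a fit of 0.05 ± 0.09.

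All 5 expressed centromere and kinetochore genes had values above 0, with a median of 0.18. Cenpa, the histone variant of centromeres, read 0.33, 0.34, 0.35 and -0.05, and array 4 stood apart from the rest. The fit was 0.24 ± 0.10. Ndc80 and Nuf2, which pair in the complex that holds microtubules, were above 0 on all 4 arrays, with 0.23 ± 0.08 and 0.17 ± 0.07, and Cenpe, a kinetochore motor, had 0.18 ± 0.10.

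The 13 spindle motors and microtubule proteins were all above 0, with a median of 0.19, and 5 were at an unadjusted p below 0.05. Nusap1, a spindle-stabilizing protein, read 0.15, 0.11, 0.53 and 0.27 (fit 0.27 ± 0.09). Tpx2, the activator of Aurora A on the spindle, read 0.32, 0.20, 0.37 and 0.05 (fit 0.24 ± 0.08). Kif11, the motor that separates the spindle poles, read 0.37, 0.19, 0.14 and 0.08 (fit 0.20 ± 0.06). All of these stayed above 0 on every array. Ckap5, a microtubule polymerase with uses outside mitosis, was near 0 at 0.00 ± 0.05, as was the depolymerase Kif2c at 0.03 ± 0.07. In cytokinesis, the scaffold Anln had 0.20 ± 0.06 and the midzone motor Kif23 had 0.23 ± 0.09, each above 0 on all 4 arrays.

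The 10 genes of chromosome structure and the nuclear envelope had a lower median, 0.05, and only Hmgb2, a chromatin protein, was at an unadjusted p below 0.05, with 0.31, 0.41, 0.11 and -0.08 on the arrays (fit 0.19 ± 0.06). Mki67 read 0.10, -0.29, 0.35 and 0.29, so array 2 opposed the rest, for a fit of 0.11 ± 0.09. Top2a, the topoisomerase that untangles chromosomes, read 0.07, -0.14, 0.25 and 0.05 (fit 0.06 ± 0.09). Smc4 and Rangap1, a condensin subunit and a nuclear transport factor, had -0.00 ± 0.07 and -0.05 ± 0.07. The difference between this role and the others was not tested.

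**Figure D4:**
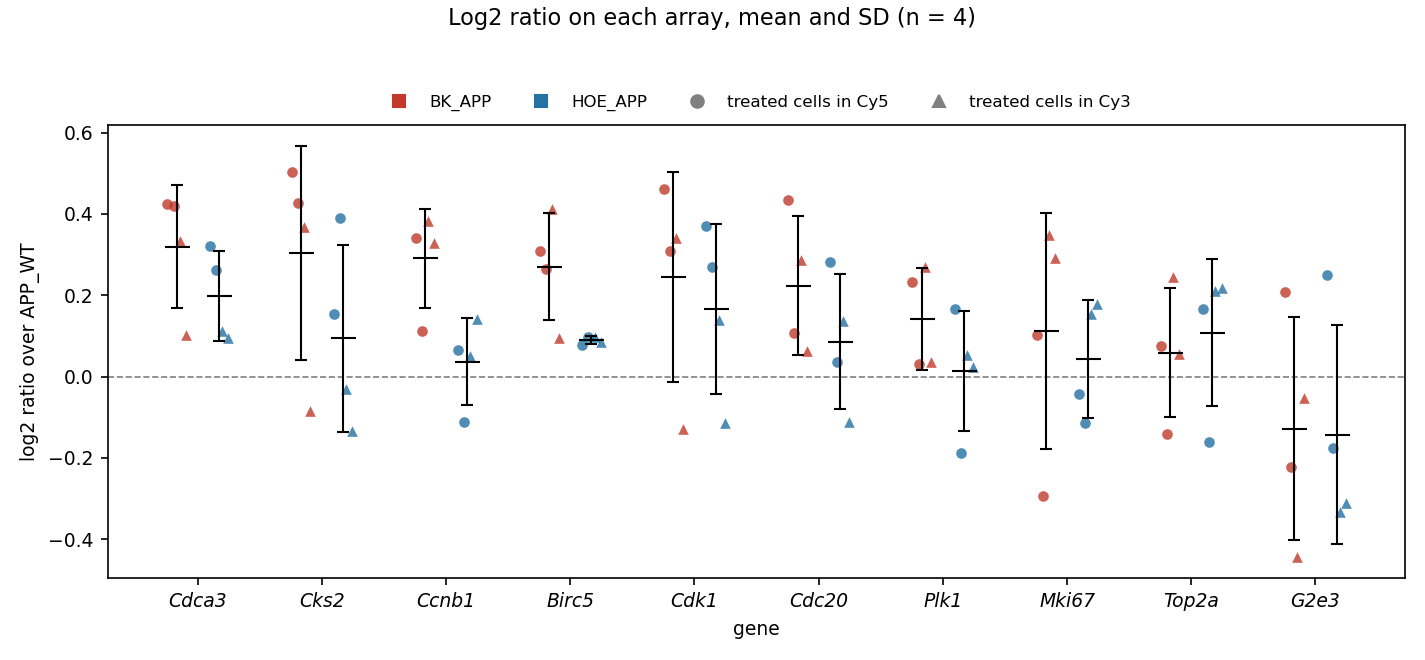
Log2 ratio over APP_WT on each array for 10 members, in BK_APP (red) and HOE_APP (blue), with mean and SD over 4 arrays; circles have the treated cells in Cy5 and triangles in Cy3. Cdca3, Ccnb1 and Birc5 lie above 0 on all 4 bradykinin arrays, while Mki67, Top2a and G2e3 have arrays on both sides of 0.

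Members with a match to the searched CHR letters in the window had a median log2 fold change of 0.18 (n = 34) with bradykinin. Those without such a match had 0.18 (n = 11). With and without a CCAAT box the medians were 0.18 (n = 35) and 0.16 (n = 10). Birc5 and Nusap1, among the 5 largest values, had neither motif in the window, and G2e3, the smallest, also had neither.

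Other cell cycle genes were read beside the module. Of 57 expressed genes in a list of other mitotic genes, 51 were above 0 with bradykinin (median 0.13) and 18 were at an unadjusted p below 0.05, all higher. Pbk, a mitotic kinase, and Spc25, a partner of Ndc80, had the largest values, 0.28 ± 0.10 and 0.25 ± 0.09. Of 41 S phase genes, 34 were above 0 (median 0.09), 14 were at an unadjusted p below 0.05 with higher values and 1, Casp8ap2, with a lower value. At that threshold (limma) 2.10% of all probes were higher and 2.36% lower. E2f8, a late-cycle transcription factor, had 0.27 ± 0.08 and Rad51ap1, a repair factor, 0.24 ± 0.06, both at an unadjusted p below 0.05. The 19 transcription factors that act on mitotic genes had a median of 0.06, with Foxm1, the activator of G2/M genes, at 0.14 ± 0.07, and the 20 inhibitors of the cycle had a median of 0.04. The 8 expressed G1 and S phase cyclins and kinases had a median of 0.07 and none at an unadjusted p below 0.05. In none of these lists did a gene pass the adjusted threshold (limma).

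Markers of the cell types were read on the same arrays. Of 18 expressed microglial markers, 13 were above 0 with bradykinin (median 0.13), with 6 at an unadjusted p below 0.05, among them Tyrobp at 0.32 ± 0.10. All 6 had higher values, against 2.10% of all probes higher and 2.36% lower at that threshold (limma). Their summed level was 16879 to 19137 in BK_APP and 15240 to 19305 in APP_WT, and none of the 18 was below background on all arrays of either. Of 16 neuronal markers 1 was above 0 (median -0.09), with a summed level of 97433 to 106405 in BK_APP and 101747 to 113225 in APP_WT. At the same threshold 2 of them had lower values and none higher. Of 10 astrocyte markers 1 was above 0 (median -0.06), with 3 lower and none higher at that threshold. The 12 progenitor markers had a median of 0.02. The 7 markers of oligodendrocyte progenitors and the 10 of endothelium, pericytes and fibroblasts had medians of 0.01 and 0.00, with none of these 3 lists' genes at an unadjusted p below 0.05. The part of cell composition in the members' values was not tested.

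**Figure D5:**
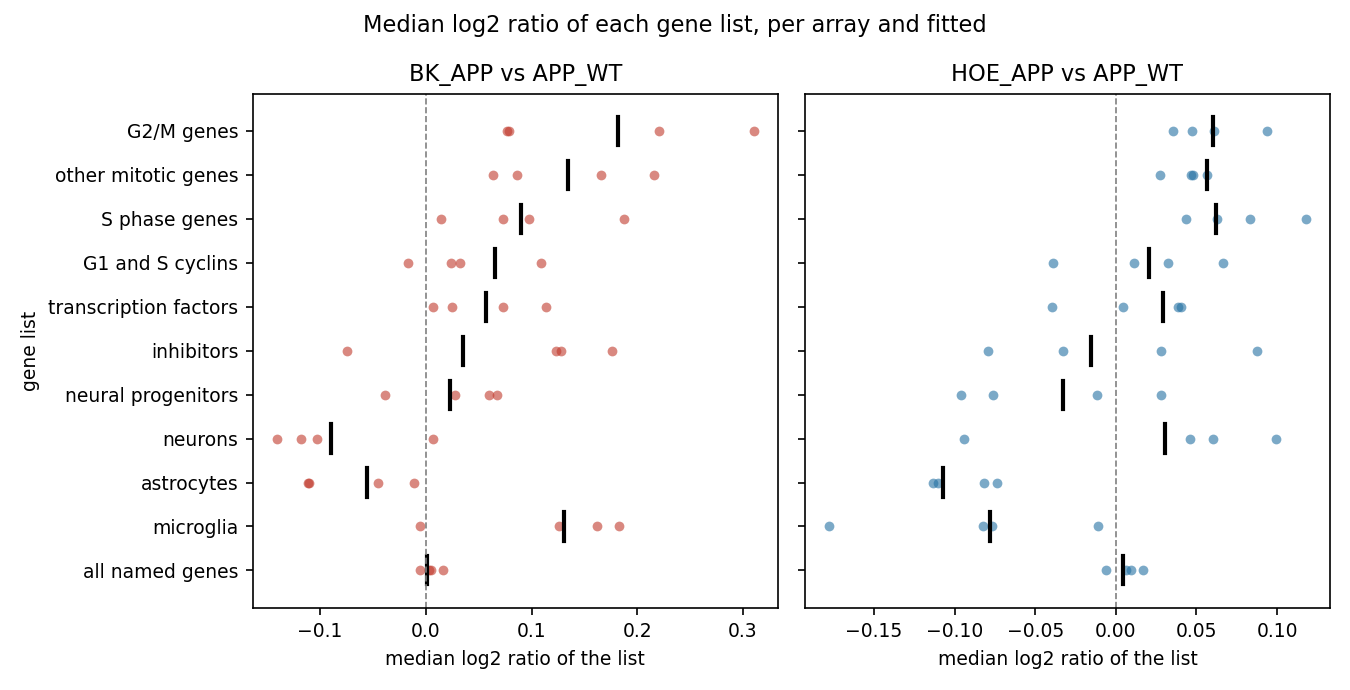
Median log2 ratio of each gene list on each array (points) and of the fitted log2 fold changes (black bar), for BK_APP and HOE_APP against APP_WT. The 2 panels have different scales. The G2/M genes lie at 0.18 with bradykinin and 0.06 with HOE-140, and the microglial markers at 0.13 and -0.08.

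The comparison of HOE_APP with APP_WT, in its likely direction, gave smaller values. Of the 51 members, 43 were above 0, the median was 0.06, and the array medians were 0.09, 0.04, 0.06 and 0.05. No member passed the adjusted threshold (limma; 0% of all probes in either direction). At an unadjusted p below 0.05 there were 3 members with higher values (Cdca3, Ndc80 and Cks1b) and none with lower values, against 2.31% and 2.72% of all probes. By the test of the study's methods 2 were called higher, Cdca3 and Ndc80, and none lower, against 0.906% and 2.06% of all probes. Above 0 on all 4 arrays were 10 members, against 5.68% of all probes, and above 0 in the fit were 7552 of all 14330 named genes. With median centering in place of loess normalization the median was 0.16, while the median of all probes moved to 0.08.

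The order of members holds for the likely direction and runs the other way if the ratio is turned. Both treatment comparisons share the APP_WT condition, and their same-numbered arrays deviated together. Agreement of values here with those under bradykinin is therefore not an independent repeat. Cdca3 had the largest value here too, with 0.32, 0.26, 0.11 and 0.10 on the arrays and a fit of 0.20 ± 0.07 (limma adjusted p = 0.924). Ndc80 read 0.24, 0.06, 0.17 and 0.25 (fit 0.18 ± 0.08), and all 4 arrays of both genes were above 0. Cdca2, a chromatin-bound phosphatase subunit, read 0.07, -0.11, 0.28 and 0.45 (fit 0.17 ± 0.10), so its arrays disagreed. The smallest values were those of G2e3 at -0.14 ± 0.11, Gas2l3, a cytoskeletal protein of the midbody, at -0.13 ± 0.06 and Dlgap5, a spindle protein, at -0.09 ± 0.06. Ccnb1 read 0.06, -0.11, 0.05 and 0.14 (fit 0.04 ± 0.10), and Mki67 -0.04, -0.11, 0.15 and 0.18 (fit 0.04 ± 0.09). Both stayed within the spread of their arrays around 0. The probes of Cbx5 disagreed in sign here, as they also did with bradykinin, and so did those of Cdca8 here. Their brightest expressed probes gave -0.04 and 0.03 with HOE-140, and that of Cbx5 gave 0.02 with bradykinin.

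Beside these, the microglial markers were below 0 in all 18 of 18 cases with HOE-140 (median -0.08), and their summed level was 13144 to 17340 in HOE_APP and 14889 to 19758 in APP_WT. The astrocyte markers had a median of -0.11 and the neuronal markers one of 0.03. At an unadjusted p below 0.05 (limma), 3 microglial and 3 astrocyte markers had lower values and none had higher ones. Of all probes 2.72% were lower and 2.31% higher. The S phase genes had a median of 0.06 and the other mitotic genes one of 0.06, the same as the module.

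The difference between the treatments was tested in the same fit as BK_APP minus HOE_APP. Of the 51 members 45 had a positive difference, with a median of 0.10, and the medians on replicates 1 to 4 were 0.12, 0.05, 0.20 and 0.02. No member passed the adjusted threshold (limma; 0% of all probes), and 1, Gas2l3, was at an unadjusted p below 0.05 with a higher value, against 1.20% of all probes higher and 1.29% lower. Its difference was 0.23, with a 95% interval from 0.04 to 0.42. The other large differences were those of Ccnb1 at 0.25 (95% interval -0.05 to 0.56) and Ckap2, a spindle protein, at 0.23 (-0.11 to 0.57). Since same-numbered BK_APP and HOE_APP arrays deviated together, the difference was also fitted on the 4 within-number differences, chosen after seeing the data. In that paired fit again no member passed the adjusted threshold (limma; 0% of all probes), but 13 members were at an unadjusted p below 0.05 with higher values and none with lower values, against 4.67% and 3.9% of all probes. Ccnb1 then had a 95% interval from 0.12 to 0.39, Gas2l3 one from 0.08 to 0.37 and Ckap2 one from 0.02 to 0.44. Birc5, Nusap1, Cks2 and Tpx2 were also among the 13, with differences from 0.18 to 0.22. The smallest were those of Cdca2 at -0.14 (-0.47 to 0.19), Rangap1 at -0.11 (-0.31 to 0.10) and Ttk at -0.10 (-0.37 to 0.17). For Cdca3 the difference was 0.12 (-0.11 to 0.35), and in the paired fit its interval was -0.02 to 0.26. All of these differences depend on the likely direction of the HOE_APP arrays. If these ran the other way, the median difference was 0.24, with 21 members at an unadjusted p below 0.05 and higher values, against 3.61% of all probes. Cdca3 would then differ by 0.52 (0.29 to 0.75) and Gas2l3 by -0.03 (-0.23 to 0.16).

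The comparison of APP_WT with WT asked how the transgenic cultures differed from wild type. It is the comparison of the 3 in which probes passed the adjusted threshold, and the members lay evenly around 0, with 25 of the 51 above it, 26 below and a median of -0.01. On all 4 arrays, 4 members were above 0 and 3 below, against 15.1% and 11.9% of all probes. The array medians were -0.12, 0.10, -0.15 and 0.17, so arrays 1 and 3 opposed arrays 2 and 4, and their spread (SD 0.16) far exceeded the median. At an adjusted p below 0.05 (limma) 3 members rose, against 11.6% of all probes, and 2 fell, against 7.00% (6 and 6 members at an unadjusted p below 0.05, against 17.9% and 13.9%). Counted by gene, as the members are, 17% of all named genes rose and 8.03% fell at the adjusted threshold. By the test of the study's methods there were 1 higher, Ckap2, and 1 lower, Tmpo, against 8.10% and 4.41% of all probes. The 4 arrays lay on another slide than the 8 treated arrays, and each held both genotypes. APP_WT is the first-named condition here and the second-named one on the treated arrays, where the members' medians were 0.22, 0.08, 0.31 and 0.08 with bradykinin on arrays 1 to 4, highest on the numbers that are below 0 here.

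Ckap2, which stabilizes spindle microtubules, read 0.14, 0.50, 0.08 and 0.70, all above 0 (log2 fold change 0.35 ± 0.11, adjusted p = 0.046). Nuf2 read -0.04, 0.34, 0.15 and 0.46 (0.23 ± 0.07, adjusted p = 0.046), with array 1 just below 0. Ckap5 read 0.07, 0.18, 0.32 and 0.17 (0.18 ± 0.05, adjusted p = 0.027). Tmpo, lamina-associated polypeptide of the nuclear envelope, read -0.49, -0.64, -0.26 and 0.02 (-0.35 ± 0.07, adjusted p = 0.0049), and its 4 probes all had values below 0, from -0.35 to -0.19. Anp32e, a histone chaperone, read -0.28, -0.66, -0.05 and -0.08 (-0.27 ± 0.06, adjusted p = 0.011), and its second probe gave -0.13. These adjusted p-values are limma's over all probes.

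The 3 increases depended on the processing. Tmpo passed its threshold under all alternatives run, and Anp32e missed it without the dye coefficient, on the 4 arrays alone, by the methods' test and without array 2 or 4. With the scanner software's own normalization 1 member rose and 4 fell, with median centering none rose and 7 fell, and a block on replicate numbers left none that rose and 2 that fell. Without array 2, 2 members passed, and without array 4, 3 did.

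The core cell cycle regulators of the module differed by less than their spread between these cultures. Cdk1 read -0.25, 0.32, -0.03 and 0.66 (0.17 ± 0.12, adjusted p = 0.369), Ccnb1 0.00, 0.32, -0.59 and 0.08 (-0.05 ± 0.10, adjusted p = 0.780) and Mki67 -0.21, 0.38, -0.13 and 0.16 (0.05 ± 0.09, adjusted p = 0.755; limma for all). Each had arrays on both sides of 0. The probes of Ccnb1, Cdk1 and Dlgap5 disagreed in sign, with -0.13 to 0.26 for Ccnb1. Ndc80 was below 0 on all 4 arrays, at -0.48, -0.02, -0.33 and -0.14, and missed the threshold (-0.24 ± 0.08, limma adjusted p = 0.059), which it passed with the scanner software's normalization (-0.56, adjusted p = 0.0066). Psrc1, a spindle protein, read 1.37 on array 2 and between -0.26 and 0.21 on the others (0.35 ± 0.17, adjusted p = 0.179).

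Other genes of the cycle are read against all named genes, of which 17% rose and 8.03% fell at an adjusted p below 0.05 (limma). Of the 20 expressed inhibitors 4 rose and 2 fell, shares near those of all genes. Cdkn2b, the CDK4 inhibitor p15, rose by 1.08 ± 0.08 (adjusted p = 6.55e-06), Cdkn2a, which encodes p16 and p19ARF, by 0.65 ± 0.11 (adjusted p = 0.0020) and Cdkn1a, the p53 target p21, by 0.64 ± 0.08 (adjusted p = 0.00026). Ccng1, another p53 target, rose by 0.40 ± 0.08, while Cdkn1c (p57) fell by 0.32 ± 0.07 and Ccng2 fell by 0.22 ± 0.06. Of the G1 and S phase genes, the D-type cyclins Ccnd1 and Ccnd3 rose by 0.77 ± 0.15 and 0.33 ± 0.07 and Cdk4 fell by 0.20 ± 0.05. The NF-Y subunits Nfya and Nfyb fell by 0.29 ± 0.07 and 0.23 ± 0.07, and the E2F partner Tfdp1 fell by 0.20 ± 0.06, the 3 called of 19 transcription factors, against 8.03% of all genes that fell. Among the other mitotic genes 2 of 57 rose, Pttg1, securin, by 0.52 ± 0.06 and Tubb4b, a tubulin, by 0.39 ± 0.05, against 17% of all genes, and 5 fell, against 8.03%, with Kif15, a spindle motor, at -0.37 ± 0.11. Of 41 S phase genes 1 fell, the primase subunit Prim1 (-0.19 ± 0.05), and none rose.

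The cell type markers differed strongly beside these values. Of 18 microglial markers 17 rose (median 1.49), and their summed level was 15736 to 19999 in APP_WT and 10402 to 12478 in WT, where 2 of the 18 were below background on all arrays. Of the 10 astrocyte markers 7 rose, of the 16 neuronal markers 3 rose and 7 fell, and of the 12 progenitor markers 5 rose and 2 fell, beside the 17% and 8.03% of all named genes. The part of these cells in the values of the cycle genes was not tested.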

How the data were processed

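Gene expression was measured on two-color arrays (Agilent SurePrint G3 mouse, 8 x 60K) from 100 ng of total RNA a sample, with 4 independent biological replicates and dye swaps per comparison, per the study's methods. The authors deposited spot intensities with background and flags, per the file headers from Feature Extraction 11.0.1.1 (the methods name another version), and a table of log2 ratios, which correlated with the turned scanner ratios at r = 1.00 on each of the 12 arrays, with array medians from -0.155 to 0.036 and a slope of 1.00 on their log2 scale. Medians and background medians were corrected with normexp (offset 50) and normalized by loess (span 0.3) in limma 3.58.1 (R 4.3.3). Control and uneven spots were left out, and 461 expressed probes have a missing ratio on at least 1 array, which the fit drops. Spots of a probe were averaged and ratios turned to first-named over second-named condition. Probes were named through their RefSeq identifiers (27509 of 55681).

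One limma model over the 12 arrays held, for every one of the 3 comparisons, its mean and its dye effect (6 residual degrees of freedom, prior 4.56), with Benjamini-Hochberg adjustment over 29361 expressed probes. A gene was read from its expressed probe of highest mean intensity. The model was tested on simulated data with known changes. The number of arrays limits the precision. Opposite-dye arrays correlated from -0.32 to -0.11 within BK_APP and from -0.32 to -0.19 within HOE_APP over all expressed probes, after ratios were turned to one direction. Deviations of same-numbered BK_APP and HOE_APP arrays correlated at 0.52 to 0.67, every pair above 0.1. Such arrays also share the dye orientation, and with the dye effect removed the values were 0.42 to 0.43. The numbers were therefore taken to pair these arrays, from the data and not from the labels. Against the APP_WT_vs_WT array of the same number, where APP_WT is the first-named condition, these deviations correlated from -0.60 to -0.30. With the dye effect removed this range was -0.51 to -0.21.

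The members and gene lists were chosen with earlier results of these data known. Named are a fixed set of 20 members, the called members, the 3 largest and smallest treatment values, members with disagreeing or unexpressed probes, and called genes of each list. Other genes named, and the printed promoters, were chosen after their values were seen. Alternatives were background correction, normalization, the deposited log2 table, probe filters, dye term, separate fits, probe averaging, the methods' test, leaving out arrays, and replicate blocks. For the methods' test, both statistics were computed anew on the loess-normalized ratios. The rank product p was taken only on the side of the mean ratio.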

Additional observations from a re-analysis of the deposited data

Results flagged for a closer look

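A group here is 1 gene, or the median of the members, on the 4 arrays of 1 comparison. In 6 of 108 groups a single array stood apart from the others, as judged by its gap to the nearest array over the range of the group. All 6 were single genes. Chance alone flags about 1 group in 20. With bradykinin the gap was 0.871 of the range for Ccna2 (array 1, at a log2 ratio of 0.38), 0.967 for Cenpa (array 4, at -0.05) and 0.880 for Rangap1 (array 1, at 0.18). With HOE-140 it was 0.926 for Aurka (array 1, at 0.29), 0.861 for Cenpe (array 4, at 0.22) and 0.859 for Top2a (array 2, at -0.16).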

How the results depend on the processing

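In APP_WT against WT, 5 members passed the adjusted threshold. The count was 3 with an offset of 10 or without the dye coefficient, 2 without the filter on dim probes, by the methods' test or with the replicate block, 1 on the 4 arrays alone, and from 2 to 7 when 1 array was left out. The split of higher against lower was 1 and 5 in the deposited table and 0 and 7 with median centering, where 12 members were above 0. A block on the APP_WT sample of each number, chosen after seeing the data, gave 10. With bradykinin the methods' test called 25 members and limma none; the count of 21 at an unadjusted p below 0.05 became 10 with the replicate block and ran from 3 to 21 when 1 array was left out, and with that block Ckap2, Ckap5 and Nuf2 also lost their calls in APP_WT against WT (limma adjusted p of 0.061 to 0.098), while no other call changed. The bradykinin median ran from 0.12 to 0.21 over all alternatives run. With HOE-140 the methods' test called 2, and the median was 0.16 with median centering. With the HOE_APP sign turned the median of BK_APP minus HOE_APP was 0.24, and its paired fit, added after seeing the data, kept the median of 0.10 and no adjusted call. For single named members, 2166 values kept their side of the threshold, 33 lost it, 36 gained it and none changed sign while called. These counts include the methods' test, whose threshold is an unadjusted p where limma's is an adjusted one. The methods' test was not run for BK_APP minus HOE_APP, which separate fits also cannot give. The causes were not tested. With 4 arrays a comparison and a median SE of 0.08, changes near that size are not detectable. Larger ones also went uncalled: with bradykinin the named genes ran from -0.58 to 0.62, and none passed the adjusted threshold (limma).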
